A study of Mus musculus with 4 samples.

Results

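The genes described here encode the working parts of the lysosome: cathepsins, glycosidases, hydrolases and transporters of lipids, the proton pump and lysosomal membrane proteins. They were chosen as a list of 35 gene symbols, and all 35 were found among the 53379 Ensembl mouse genes counted. RNA was sequenced from tumour-associated macrophages that had been sorted as positive for CD45, CD11b and F4/80, 21 days after implantation of MC38 tumours. MC38 is a mouse colon carcinoma line, and the hosts were C57BL/6J mice. The groups were a high-fat diet and a control diet, with 2 libraries from 2 mice each, and no other genotype or treatment is named. The sources used here do not state the sex or age of the mice, how long they were fed or what the diets contained.

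Lysosomes are the acidic compartments in which macrophages break down what they engulf and what autophagy delivers. Their hydrolases are made in the endoplasmic reticulum, tagged in the Golgi with mannose 6-phosphate and carried to the lysosome, where a vacuolar ATPase pumps in the protons that most of them need. Transcription factors of the TFEB and MITF family bind a short palindrome, an E-box within the so-called CLEAR element, in the promoters of many of these genes. In tumour macrophages, lysosomal proteases also act on antigens and, once secreted, on matrix.

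Libraries held 34148682 to 37159552 counts. Levels are in CPM, the count scaled to a common, TMM-adjusted library size. Called means an adjusted p below 0.05 in edgeR's quasi-likelihood test over the 18422 genes that passed the filter on low counts. Genes of macrophage identity fitted the label: all 11 markers listed, Csf1r, Adgre1 and Mertk among them, were detected in each library and 0 were called by edgeR, with 2 at an unadjusted p below 0.05 and 1 called by DESeq2. Their sum was 13295 and 13752 CPM on the high-fat diet and 9419 and 13114 CPM on the control diet, lowest in control-diet mouse 1. C1qa, C1qb and C1qc were lowest there, C1qa with 1462 CPM against 2720.2 to 3194 in the other libraries. Csf1r was highest there, with 1673 and 1633 CPM on the high-fat diet and 2120 and 2007 CPM on the control diet. Both high-fat-diet libraries lay above both control-diet libraries in 5 of the 11 markers and below in 4 (all genes tested: 32.2% and 31.6%). Control-diet mouse 1 also had the highest sums of neutrophil, monocyte, dendritic, and T and NK cell markers. Its sum of epithelial markers was highest too, but mostly through Cdh1, with 144 CPM. The epithelial markers called lower, Epcam, Krt8, Krt18, Krt19 and Cldn4, were all highest in control-diet mouse 2. Epcam had 11.7 CPM there and 2.90 CPM in control-diet mouse 1. Markers of other cells differed between the diets and between the control-diet mice. Summed neutrophil markers had 88.6 and 89.6 CPM on the high-fat diet and 270.2 and 119 CPM on the control diet, with 6 of 9 tested called lower in the high-fat diet and Ly6g at 0 counts in both libraries of that diet. Monocyte markers had 791 and 500.1 CPM on the high-fat diet and 1387 and 513 CPM on the control diet, with 0 of 6 called by edgeR, 3 at an unadjusted p below 0.05 and 1 called by DESeq2. Dendritic cell markers had 19.1 and 25.2 CPM on the high-fat diet and 86.4 and 53.2 CPM on the control diet (2 of 7 lower), T and NK cell markers 19.01 and 17.3 CPM on the high-fat diet and 65.1 and 17.7 CPM on the control diet (1 of 7 lower) and epithelial markers 39.4 and 45.9 CPM on the high-fat diet and 156 and 109 CPM on the control diet (5 of 6 lower). Of 3 tested B cell markers 1 was lower. Of 3 tested endothelial markers and of 8 immediate early genes 0 were called by edgeR, with 2 and 4 at an unadjusted p below 0.05, and DESeq2 called 0 and 3. Fibroblast markers had 2041 and 2025 CPM on the high-fat diet and 1024 and 774 CPM on the control diet (5 of 8 higher). Transcripts of the mitochondrial genome, a sign of RNA and cell quality, had 23907 and 13986 CPM on the high-fat diet and 6351 and 9284 CPM on the control diet (2 of 6 tested higher). All 6 had both high-fat-diet libraries above both control-diet libraries and an unadjusted p below 0.05, and DESeq2 called all 6 higher. The listed transcripts mt-Co2, mt-Co3 and mt-Atp6 had 0 counts in every library and add nothing to these sums. The reason is not known here. The part of these cells and transcripts in the results below was not tested, and in bulk RNA fewer cells of a type and less RNA per cell cannot be told apart.

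Few of the lysosomal genes passed the test between the diets. Of the 35 genes, 1 was called lower in the high-fat-diet libraries, Gla, and 0 were called higher, where over all genes tested 7.91% were called lower and 2.61% higher. At an unadjusted p below 0.05 there were 3 higher (Ctsb, Ctsl and Mcoln1) and 3 lower (Gla, Ctsk and Gusb), a total of 6 of 35 against 31.3% of all genes tested, and DESeq2 called 1 higher, Ctsl, and 2 lower, Gla and Ctsk. All 35 passed the filter. The median log2 fold change, high-fat minus control diet, was 0.14 over the 35 genes and 0.005 over all genes tested, and 24 of the 35 values were positive. Both high-fat-diet libraries lay above both control-diet libraries in 14 of the 35 genes, against 32.2% of all genes tested, and below both in 5, against 31.6%, so that the diets were apart in 19 of 35, against 63.8%. The 95% interval of the fold change lay within 2-fold in either direction for 29 of the 35 genes, and within 1.5-fold for 12. Leaving out high-fat-diet mouse 1 ended the call of Gla, so that 0 members were lower. Leaving out control-diet mouse 1 gave 1 higher member, Ctsl (adjusted p = 0.0384), and leaving out control-diet mouse 2 gave 3, Atp6v0d2 (0.0306), Ctsb (0.0269) and Lamp2 (0.0237).

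**Figure D1:**
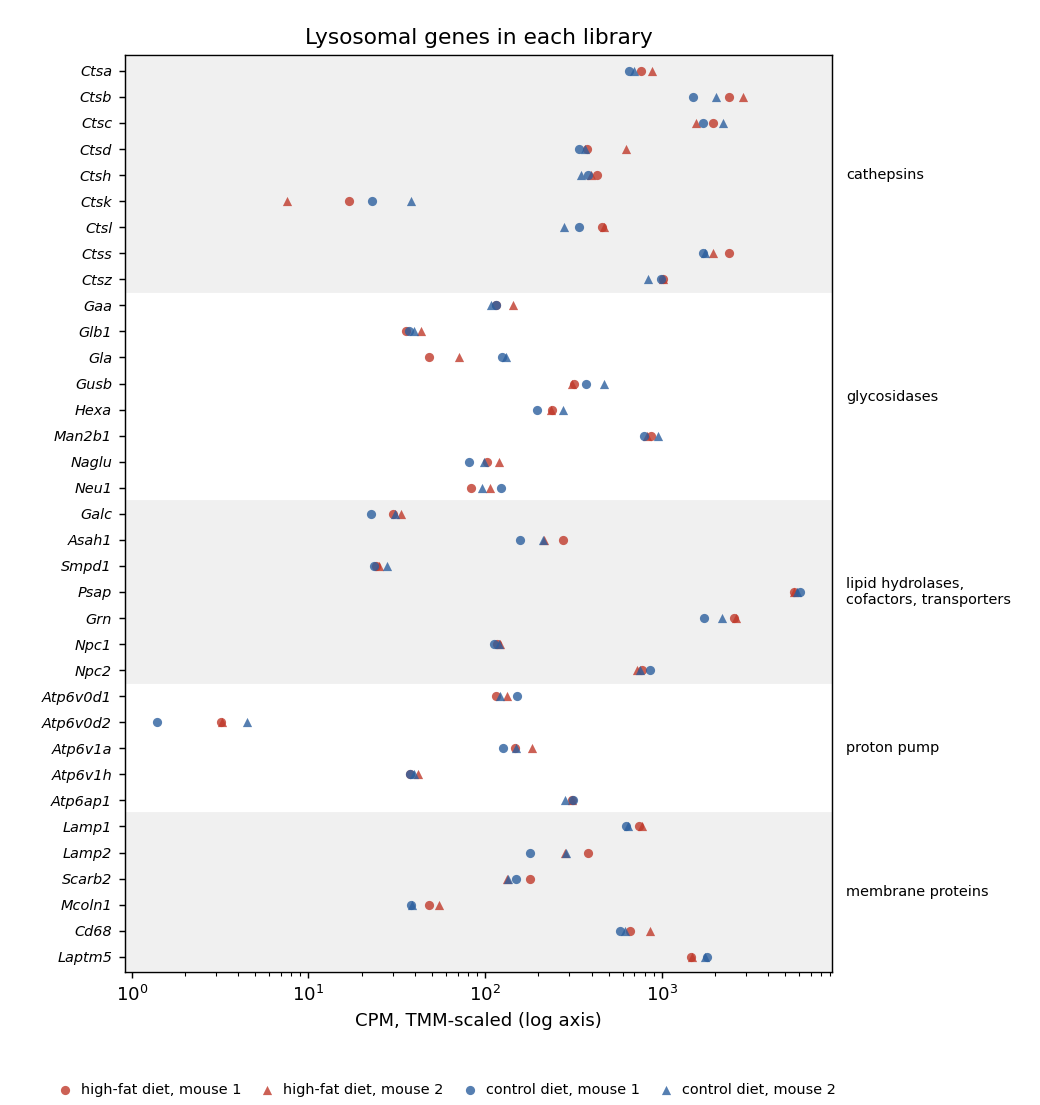
CPM of each of the 35 lysosomal genes in the 4 libraries, on a log axis, with red for the high-fat and blue for the control diet, circles for mouse 1 and triangles for mouse 2. The diets overlap in 16 of the 35 rows. Both high-fat-diet symbols lie above both control-diet symbols in 14 rows and below them in 5. Gla is among those 5, with the high-fat-diet libraries at 48.4 and 70.9 and the control-diet libraries at 124 and 130.4 CPM.

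Together the 35 genes took 2.55 and 2.62% of all counts on the high-fat diet and 2.14 and 2.4% on the control diet. Psap alone held 22.4 and 22.3% of those counts on the high-fat diet and 26.9 and 24.3% on the control diet. Levels of different genes were compared per kilobase of the annotated main transcript, as the mean over the 4 libraries. On that scale Psap led with 2177 CPM per kb, followed by Ctss with 1448, Grn with 975, Ctsc with 747, Ctsz with 668, Laptm5 with 627 and Cd68 with 553. At the other end stood Atp6v0d2 with 1.21, Galc with 7.63, Smpd1 with 10.4 and Ctsk with 14.1 CPM per kb.

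Some counts could hold reads of a neighbour, since the strand setting of the counting is not known here. Exons overlap on opposite strands for Ctsa with Pltp (1976 to 3036 counts, against at least 21238), Ctsb with Fdft1 (668 to 1005 counts, against at least 48886) and Npc1 with Rmc1 (880 to 1456 counts, against at least 3661), and on the same strand for Glb1 with Tmppe (517 to 564 counts, against at least 1201). Of the genes at an unadjusted p below 0.05 beside Gla, the annotation (GRCm38, GENCODE M21) places Ctsb on chromosome 14 from 63122462 to 63145923 (plus strand), Ctsl on chromosome 13 from 64359337 to 64370890 (minus strand), Ctsk on chromosome 3 from 95499256 to 95509362 (plus strand), Gusb on chromosome 5 from 129989011 to 130003049 (minus strand) and Mcoln1 on chromosome 8 from 3500457 to 3515232 (plus strand).

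Gla encodes alpha-galactosidase A, which removes terminal galactose from globotriaosylceramide and is the enzyme lacking in Fabry disease. The gene lies on the minus strand of chromosome X from 134588149 to 134601125 (GRCm38, GENCODE M21). It had 48.4 and 70.9 CPM on the high-fat diet and 124 and 130.4 CPM on the control diet. Both high-fat-diet values were lower than both control-diet values, with 59.6 ± 15.9 against 127 ± 4.25 CPM (SD, n = 2), a 2.14-fold lower level (log2 fold change -1.09, SE 0.21, adjusted p = 0.0319) with a 95% interval of the log2 fold change from -1.60 to -0.59. The call held without high-fat-diet mouse 2 (adjusted p = 0.0338), control-diet mouse 1 (0.0244) and control-diet mouse 2 (0.0161), and was lost when high-fat-diet mouse 1 was left out (adjusted p = 0.143, log2 fold change -0.83). The neighbouring genes, chosen after their values were seen, did not pass the test. Hnrnph2, which encodes an RNA-binding protein and starts next to Gla in the opposite direction, at 134601179, had 104 and 80.4 CPM on the high-fat diet and 86.1 and 88.7 CPM on the control diet (adjusted p = 0.78), and Btk, a tyrosine kinase gene on the same strand as Gla, had 55.3 and 47.7 against 52.3 and 65.6 CPM (adjusted p = 0.475). Rpl36a lies on the plus strand and ends at 134588062, just before Gla. It had 2.46 and 2.97 CPM on the high-fat diet and 2.47 and 3.12 CPM on the control diet (edgeR adjusted p = 0.936). No exon of Gla overlaps an exon of another annotated gene.

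The RefSeq promoter window of Gla, 250 bases before to 50 bases after the start, held the core E-box CACGTG at 2 places, and both lie in the palindrome TCACGTGA, the inner part of the CLEAR element. They are shown here because Gla is the member that was called. Both fall in an annotated exon of Hnrnph2. Positions count from the RefSeq start to the first base of the core, which is in capitals, and the sequence is RefSeq's (GRCm38.p6).
Gla at -227 (chrX:134601215-134601244, minus strand): taagcgattgatCACGTGagcatctacgtc
Gla at -194 (chrX:134601182-134601211, minus strand): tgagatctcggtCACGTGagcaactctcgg

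Cathepsins are the lysosomal proteases. Of 9 members 0 were called by edgeR, with 3 at an unadjusted p below 0.05. Both high-fat-diet libraries lay above both control-diet libraries in 7 of the 9, against 32.2% of all genes tested, and below in 1, Ctsk, while those of Ctsc overlapped. The median log2 fold change was 0.29, DESeq2 called Ctsl higher and Ctsk lower, and their summed level was 9815 and 9823 CPM on the high-fat diet and 7672 and 8542 CPM on the control diet. Ctsl, a cysteine protease that also processes the invariant chain of MHC class II, had 457 and 469 CPM on the high-fat diet and 339.9 and 279 CPM on the control diet. The diets did not overlap (log2 fold change 0.58, SE 0.17, adjusted p = 0.0752), and the 95% interval of the log2 fold change ran from 0.18 to 0.98. Ctsl had an edgeR adjusted p of 0.0488 when libraries were scaled by total counts and of 0.0222 without the filter. It was not called with RLE size factors or with a replicate block. With 1 library left out in turn, its log2 fold change ran from 0.45 to 0.74.

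Ctsb, a cysteine protease that leaks from damaged lysosomes into the cytosol, had 2393 and 2894 CPM on the high-fat diet and 1507 and 2020.0 CPM on the control diet. Its lowest high-fat-diet value lay above its highest control-diet value, while the control-diet mice differed between themselves (log2 fold change 0.58, SE 0.21, adjusted p = 0.125). Ctsd, the main aspartic protease of the lysosome, had 377 and 627 CPM on the high-fat diet and 338 and 365 CPM on the control diet. Only high-fat-diet mouse 2 stood well above the control-diet values (log2 fold change 0.51, SE 0.26, adjusted p = 0.223). Ctss, the cysteine protease that cuts the invariant chain in antigen-presenting cells and stays active at neutral pH, had 2412 and 1958 CPM on the high-fat diet and 1718 and 1761 CPM on the control diet. Here it was high-fat-diet mouse 1 that stood highest (log2 fold change 0.33, SE 0.18, adjusted p = 0.256). Ctsa, a carboxypeptidase that also protects Glb1 and Neu1 in a complex, had 766 and 886 CPM on the high-fat diet and 655 and 694 CPM on the control diet (adjusted p = 0.267). Ctsh, an aminopeptidase, had 432 and 395 CPM on the high-fat diet and 381 and 347 CPM on the control diet (adjusted p = 0.447). In both genes the diets did not overlap. Ctsz, a carboxypeptidase, had 1009 and 1019.9 CPM on the high-fat diet and 989 and 831 CPM on the control diet (adjusted p = 0.559), with 3 libraries close together and control-diet mouse 2 lower. Ctsc, also called dipeptidyl peptidase I, which activates granule serine proteases, had 1952 and 1567 CPM on the high-fat diet and 1721 and 2207 CPM on the control diet (adjusted p = 0.635), and its diets overlapped.

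Ctsk, the collagen-cleaving cathepsin best known from osteoclasts, had the most negative log2 fold change of the 35 genes and was among the lowest per kilobase. It had 16.9 and 7.53 CPM on the high-fat diet and 22.8 and 37.9 CPM on the control diet. The diets did not overlap, but the mice differed by a log2 ratio of -1.17 (mouse 2 over mouse 1) within the high-fat diet and 0.73 within the control diet (log2 fold change -1.31, SE 0.42, adjusted p = 0.0946), with a 95% interval from -2.33 to -0.30. DESeq2 called it lower (adjusted p = 0.00923). Ctsk is also expressed by osteoclasts and fibroblasts. Of 4 tested osteoclast markers all had negative log2 fold changes and 1, Dcstamp, was called lower. Dcstamp had 2.43 and 3.49 CPM on the high-fat diet and 10.6 and 6.67 CPM on the control diet. Ocstamp had 19.7 and 12.6 CPM on the high-fat diet and 26.1 and 18.4 CPM on the control diet. Nfatc1 had 118 and 106 CPM on the high-fat diet and 142 and 133 CPM on the control diet. Calcr had 0 to 3 counts per library and was not tested. Of 8 fibroblast markers 5 were called higher, and their sum was 2041 and 2025 CPM on the high-fat diet and 1024 and 774 CPM on the control diet. Acp5, listed below with the other hydrolases and also used as an osteoclast marker, was called higher. It had 166 and 148 CPM on the high-fat diet and 65.6 and 73.7 CPM on the control diet (edgeR adjusted p = 0.0144). The part of osteoclasts or fibroblasts in the level of Ctsk was not tested.

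**Figure D2:**
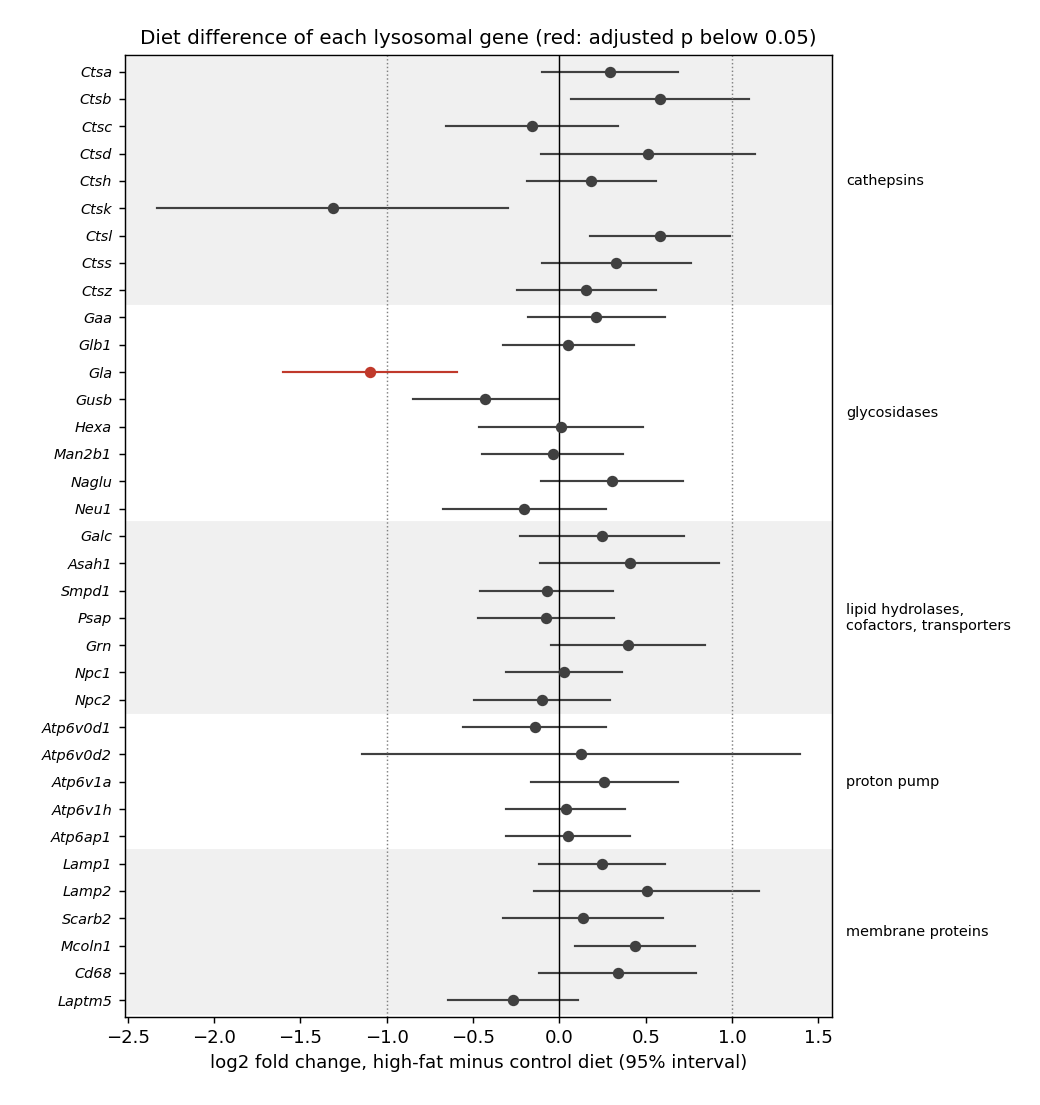
Log2 fold change of each lysosomal gene, high-fat minus control diet, with its 95% interval from edgeR's quasi-likelihood fit (n = 2 mice per diet), red where called and with dotted lines at a 2-fold difference. Gla alone is red, at -1.09, and Ctsk lies lower at -1.31 with an interval from -2.33 to -0.30.

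The glycosidases take sugars from glycoproteins, glycolipids and glycosaminoglycans. Of 8 members, Gla was called lower and 0 were called higher by either tool or at an unadjusted p below 0.05, and the median log2 fold change was -0.02. Gusb, which encodes beta-glucuronidase, had 318 and 309 CPM on the high-fat diet and 373 and 469.9 CPM on the control diet (log2 fold change -0.43, SE 0.17, adjusted p = 0.154), with both high-fat-diet values below both control-diet values. Naglu, which acts on heparan sulphate, had 102 and 119 CPM on the high-fat diet and 80.6 and 98.2 CPM on the control diet (adjusted p = 0.265), and Gaa, the glycogen-cleaving acid alpha-glucosidase, had 115 and 143 CPM on the high-fat diet and 115 and 108 CPM on the control diet (adjusted p = 0.411). In both genes the high-fat-diet values lay above the control-diet values by a margin smaller than the gap between the mice of 1 diet.

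The diets overlapped in the other glycosidases. Man2b1, the alpha-mannosidase, had 865 and 829 CPM on the high-fat diet and 794 and 948 CPM on the control diet (adjusted p = 0.893). Hexa, the alpha subunit of beta-hexosaminidase, had 238 and 237 CPM on the high-fat diet and 197 and 275 CPM on the control diet (adjusted p = 0.978), so that the high-fat-diet mice agreed closely and lay between the control-diet mice. Neu1, the sialidase, had 83.2 and 106 CPM on the high-fat diet and 122 and 95.7 CPM on the control diet (adjusted p = 0.515). The order of the mice differed between the diets. Glb1, which encodes beta-galactosidase, had 35.8 and 43.4 CPM on the high-fat diet and 37.02 and 39.4 CPM on the control diet (adjusted p = 0.849). Its 95% interval of the log2 fold change, -0.33 to 0.43, lay within 1.5-fold, as did those of Hexa and Man2b1.

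Among genes of sphingolipid breakdown and cholesterol export, edgeR and DESeq2 called 0 of 7, also at an unadjusted p below 0.05, with a median log2 fold change of 0.03. Psap encodes prosaposin, the precursor of the saposins that present lipids to the hydrolases. It had 5626 and 5636 CPM on the high-fat diet and 6046 and 5834 CPM on the control diet, all within a narrow range (log2 fold change -0.08, SE 0.16, adjusted p = 0.778). Grn encodes progranulin, which travels with prosaposin and is cut into granulins in the lysosome. It had 2563 and 2620.3 CPM on the high-fat diet and 1739 and 2200.2 CPM on the control diet, with the high-fat-diet mice alike and control-diet mouse 1 lowest (log2 fold change 0.40, SE 0.18, adjusted p = 0.197). Asah1, the acid ceramidase, had 277 and 214 CPM on the high-fat diet and 158 and 212 CPM on the control diet (log2 fold change 0.41, SE 0.21, adjusted p = 0.243), where high-fat-diet mouse 2 and control-diet mouse 2 were nearly level.

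Smpd1, the acid sphingomyelinase, had 23.98 and 24.9 CPM on the high-fat diet and 23.5 and 27.9 CPM on the control diet (adjusted p = 0.784). Galc, which removes galactose from galactosylceramide, had 30.2 and 33.3 CPM on the high-fat diet and 22.4 and 31.1 CPM on the control diet (adjusted p = 0.423). In both enzymes the diets overlapped, as they did in Npc1 and Npc2, the membrane and the soluble protein that pass cholesterol out of the lysosome. Npc1 had 117 and 121 CPM on the high-fat diet and 113 and 120.4 CPM on the control diet (adjusted p = 0.912), with a 95% interval of the log2 fold change from -0.31 to 0.36. Npc2 had 772 and 727 CPM on the high-fat diet and 858 and 749 CPM on the control diet (adjusted p = 0.703), with an interval from -0.49 to 0.29.

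The vacuolar ATPase has a membrane part, V0, through which protons pass, and a cytosolic part, V1, which splits ATP. Of its 5 genes here 0 were called by edgeR or DESeq2 or had an unadjusted p below 0.05, the diets overlapped in all 5, and the median log2 fold change was 0.05. Atp6v1a, the catalytic subunit of V1, had 148 and 183 CPM on the high-fat diet and 127 and 149.7 CPM on the control diet (adjusted p = 0.349). Atp6v1h, the regulatory subunit H, had 37.4 and 41.7 CPM on the high-fat diet and 37.5 and 39.6 CPM on the control diet (adjusted p = 0.883), and Atp6ap1, an accessory protein of assembly, had 309 and 310.4 CPM on the high-fat diet and 314 and 284 CPM on the control diet (adjusted p = 0.839). The intervals of both lay within 1.5-fold. The paralogues of the V0 subunit d differed in level. Atp6v0d1, the widely expressed form, had 116 and 132 CPM on the high-fat diet and 152 and 122 CPM on the control diet (adjusted p = 0.605). Atp6v0d2, the form of osteoclasts and some macrophages, had 3.18 and 3.23 CPM on the high-fat diet and 1.39 and 4.46 CPM on the control diet (adjusted p = 0.892). Per kilobase that was 80.1 against 1.21 CPM per kb as means over the 4 libraries. For Atp6v0d2 the control-diet mice lay on either side of the high-fat-diet mice, the 95% interval ran from -1.14 to 1.39, and its log2 fold change was -0.47 without control-diet mouse 1 and 1.21 without control-diet mouse 2.

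The lysosomal membrane proteins gave 0 calls among 6 members by edgeR and by DESeq2, with 1, Mcoln1, at an unadjusted p below 0.05 and a median log2 fold change of 0.29. Mcoln1 encodes TRPML1, the channel that releases calcium from lysosomes. It had 48.4 and 55.04 CPM on the high-fat diet and 37.9 and 38.5 CPM on the control diet, so that the diets were apart while the mice of each diet were close (log2 fold change 0.44, SE 0.14, adjusted p = 0.1). Lamp1 and Lamp2 encode the main glycoproteins of the lysosomal membrane. Lamp1 had 740.4 and 769 CPM on the high-fat diet and 625 and 646 CPM on the control diet (log2 fold change 0.25, SE 0.15, adjusted p = 0.306), with the diets apart. Lamp2 had 382 and 282 CPM on the high-fat diet and 180.4 and 288 CPM on the control diet, and control-diet mouse 2 lay above high-fat-diet mouse 2 (log2 fold change 0.50, SE 0.27, adjusted p = 0.25). Cd68, the macrophage member of the LAMP family, had 657 and 862 CPM on the high-fat diet and 583 and 618 CPM on the control diet (adjusted p = 0.265). Its high-fat-diet values lay above the control-diet values, mainly through mouse 2. Scarb2, the receptor that carries glucocerebrosidase to the lysosome, had 180.0 and 132 CPM on the high-fat diet and 149.5 and 134 CPM on the control diet (adjusted p = 0.66). Laptm5, a membrane protein of blood cells that lowers antigen receptor levels, had 1466 and 1490.4 CPM on the high-fat diet and 1798 and 1765 CPM on the control diet (log2 fold change -0.27, SE 0.15, adjusted p = 0.281), with both high-fat-diet values below both control-diet values.

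The mice of 1 diet also differed from each other. In 21 of the 35 genes the larger of the 2 absolute log2 ratios between mice of a diet exceeded the absolute log2 fold change between the diets, which compares means of 2 mice. The same held for 62 of 116 other lysosomal genes and for 51.2% of the 10312 genes whose log2 CPM averaged 3 or more. Among the members it held for all 5 proton pump genes, 5 of 7 in the lipid group, 5 of 8 glycosidases, 3 of 6 membrane proteins and 3 of 9 cathepsins. Mouse 2 lay above mouse 1 in 24 of the 35 genes on each diet, against 47.1% of those 10312 genes on the control diet and 47.8% on the high-fat diet. Within the control diet the widest log2 ratios of mouse 2 over mouse 1 were those of Atp6v0d2 (log2 ratio 1.69), Ctsk (0.73) and Lamp2 (0.67). Within the high-fat diet the widest log2 ratios of mouse 2 over mouse 1 were those of Ctsk (-1.17), Ctsd (0.73) and Gla (0.55).

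**Figure D3:**
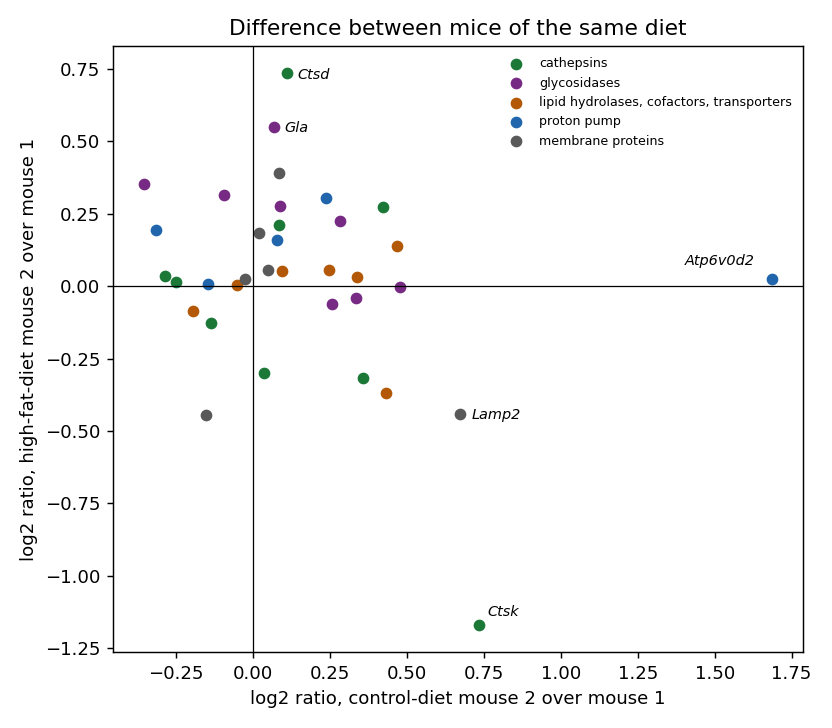
Log2 ratio of mouse 2 over mouse 1 for each of the 35 genes, within the control diet on the x axis and within the high-fat diet on the y axis, coloured by role. Most points lie near 0 on both axes, and Atp6v0d2 at 1.69 on the x axis and Ctsk at -1.17 on the y axis lie farthest out.

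Other genes of the pathway were listed by role, and their calls were no more frequent than over all genes. Of 126 listed, 116 were tested, and 3 were called higher and 3 lower, against 2.61% and 7.91% of all genes tested. Their median log2 fold change was -0.01, and the 10 not tested had at most 16 counts in a library. Among 37 other hydrolases, Acp5 rose and 0 fell, with 3 lower at an unadjusted p below 0.05 and 3 called lower by DESeq2. Acp5, the tartrate-resistant acid phosphatase, had 166 and 148 CPM on the high-fat diet and 65.6 and 73.7 CPM on the control diet (log2 fold change 1.17, SE 0.15, adjusted p = 0.0144), and its call held without each library in turn (adjusted p from 0.0024 to 0.0467).

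Among 14 other tested subunits of the proton pump, Atp6v0c fell and Atp6v1g1 rose. Atp6v0c, the proteolipid ring subunit, had 75.6 and 99.3 CPM on the high-fat diet and 201 and 162 CPM on the control diet (log2 fold change -1.05, SE 0.20, adjusted p = 0.0317). A pseudogene that matches it over 465 bases, Atp6v0c-ps2, held more reads, with 176 and 199 (high-fat diet) against 219 and 188 (control diet) CPM, so reads could have been split between them and the call is uncertain. Atp6v1g1, a stalk subunit, had 64.2 and 53.3 CPM on the high-fat diet and 37.3 and 34.5 CPM on the control diet (log2 fold change 0.71, SE 0.16, adjusted p = 0.0418), and its near-identical pseudogene Gm13453 had 57.8 and 69.7 (high-fat diet) against 66.8 and 50.1 (control diet) CPM, so this count is uncertain too. Both calls were lost when high-fat-diet mouse 1 was left out (adjusted p = 0.165 and 0.25) and also when it was mouse 2 (0.0596 and 0.0934).

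Among 26 other membrane proteins, Cd63 rose and Slc15a3 fell. Cd63, a tetraspanin of late endosomes, had 66.1 and 80.6 CPM on the high-fat diet and 39.8 and 31.02 CPM on the control diet (log2 fold change 1.05, SE 0.19, adjusted p = 0.0287), but Cd63-ps, near-identical over 858 bases, held more reads, 263 and 289 (high-fat diet) against 125 and 109.8 (control diet) CPM. Slc15a3, a lysosomal transporter of histidine and peptides, had 224 and 292 CPM on the high-fat diet and 609 and 451 CPM on the control diet (log2 fold change -1.04, SE 0.22, adjusted p = 0.0394). Leaving out high-fat-diet mouse 1 ended the call of Slc15a3 (adjusted p = 0.209). Leaving out mouse 2 of that diet ended it as well (0.0828), and also that of Cd63 (0.0992). Among 24 genes of sorting and fusion, Igf2r alone fell and 0 rose, with 3 higher at an unadjusted p below 0.05 and 0 called higher by DESeq2. Igf2r, the larger mannose 6-phosphate receptor, had 48.7 and 53.7 CPM on the high-fat diet and 76.2 and 78.5 CPM on the control diet (log2 fold change -0.60, SE 0.14, adjusted p = 0.0476), and its call ended without either high-fat-diet mouse (adjusted p = 0.328 and 0.185) or with control-diet mouse 1 left out (0.0541).

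Of 10 genes of the TFEB family and its regulators 0 were called by edgeR or DESeq2, with 3 at an unadjusted p below 0.05 and a median log2 fold change of -0.06. The smallest p belonged to Mitf, with 27.96 and 25.4 CPM on the high-fat diet and 35.1 and 40.7 CPM on the control diet (adjusted p = 0.085). The others at an unadjusted p below 0.05, named after their values were seen, went in opposite directions. Tfe3 had 107 and 113 CPM on the high-fat diet and 150.0 and 147 CPM on the control diet (adjusted p = 0.0943), and Zkscan3, a zinc finger repressor of lysosomal genes, had 40.6 and 38.4 CPM on the high-fat diet and 26.4 and 31.1 CPM on the control diet (log2 fold change 0.46, adjusted p = 0.102). Tfeb and Tfec, the remaining members of the family, had 45.6 and 46.2 against 62.4 and 51.9 CPM (adjusted p = 0.211) and 11.03 and 7.82 against 13.9 and 4.76 CPM (adjusted p = 0.982). On the high-fat diet both values of Mitf, Tfe3 and Tfeb were below those on the control diet, both of Zkscan3 were above them, and those of Tfec overlapped. Of 5 tested cathepsin inhibitors 0 were called by edgeR or DESeq2, and 1 had an unadjusted p below 0.05. That was Stfa2l1, a stefin, with 2 counts in the high-fat-diet and 25 in the control-diet libraries, a ratio of 13.6 with an exact 95% interval from 3.39 to 119 that covers counting error only. Stefins of this cluster are known from neutrophils, whose markers were also lower on the high-fat diet, and the part of those cells here was not tested. Cst3, which encodes cystatin C, was named after its values were seen and had 904 and 776 CPM on the high-fat diet and 772 and 731 CPM on the control diet (adjusted p = 0.539).

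**Figure D4:**
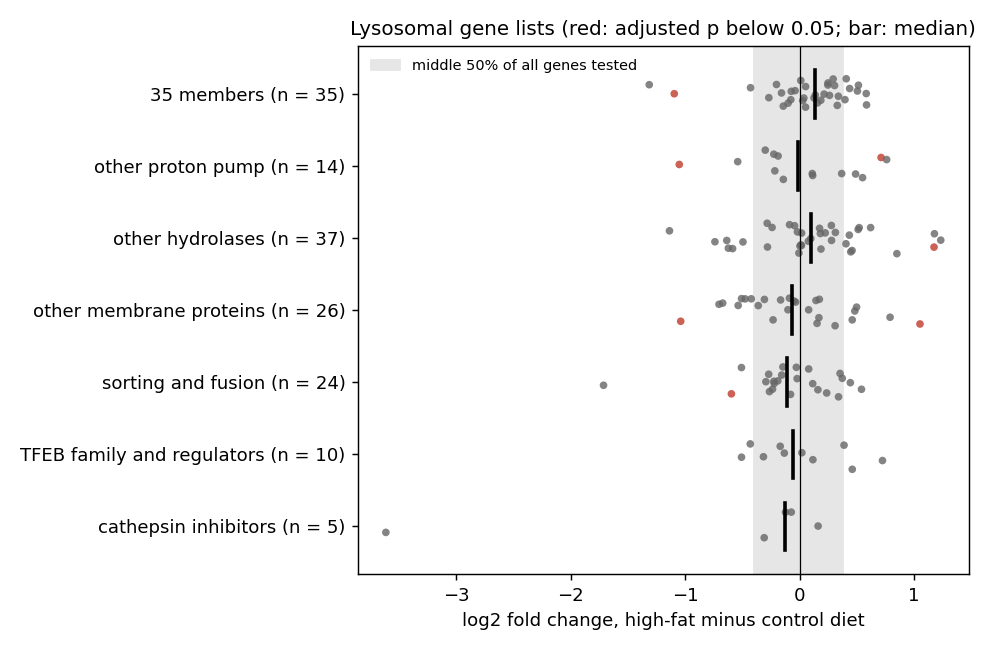
Log2 fold changes, high-fat minus control diet, of the 35 lysosomal genes and of the tested genes in 6 lists of other lysosomal genes, each point a gene, with black bars for medians, red for called genes and a grey band for the middle 50% of all genes tested. List medians run from -0.12 to 0.14, inside the band from -0.40 to 0.38, and 7 points are red.

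The core E-box CACGTG, searched by its letters, which read the same on both strands, was common in the promoters of these genes. RefSeq windows matched 29 of the 35 genes (all but Ctsb, Ctsh, Asah1, Npc1, Atp6v0d2 and Atp6v1h), and 11 of them (37.9%) held CACGTG. It was in 21% of the 100 other lysosomal genes with a window, 11.1% of tested genes with a window and 8.09% of all 27025 genes with a window. The longer palindrome TCACGTGA, which contains the core, was in 6 of the 29 (20.7%). It was in 10% of the other lysosomal genes, 2.06% of tested genes and 1.12% of all genes with a window. The full palindrome of the CLEAR element, which adds a base on each side, was in 0 of the 29. It was in 4% of the other lysosomal genes, 0.738% of tested genes and 0.37% of all genes with a window. The windows that match below are those of members with TCACGTGA beside Gla, and of Ctsl. Ctsl has the smallest p among the cathepsins and holds the core alone. The places printed for Ctsa, Ctsd, Mcoln1 and Ctsl fall in an annotated exon of the same gene. Ctsa also holds TCACGTGA at position 5, which is not printed. The windows show that genes with the same core letters had different values, from Ctsl at 0.58 to Gla at -1.09.
Ctsa at -12 (chr2:164833749-164833778, plus strand): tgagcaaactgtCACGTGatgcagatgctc
Ctsd at -98 (chr7:142387908-142387937, minus strand): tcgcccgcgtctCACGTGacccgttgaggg
Mcoln1 at -45 (chr8:3500462-3500491, plus strand): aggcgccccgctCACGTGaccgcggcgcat
Atp6v0d1 at -3 (chr8:105566050-105566079, minus strand): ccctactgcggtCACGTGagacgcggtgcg
Atp6v1a at -131 (chr16:44139373-44139402, minus strand): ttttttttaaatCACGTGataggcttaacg
Ctsl at -236 (chr13:64370739-64370768, minus strand): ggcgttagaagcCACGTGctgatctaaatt

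The 11 genes with CACGTG had a median log2 fold change of 0.26, from -1.09 to 0.58, with 9 positive values, 0 called higher and 1 called lower. The 18 with a window and without these letters had a median of -0.02, from -1.31 to 0.50, with 9 positive values and 0 calls. The 6 with no window, whose letters are not known here, had a median of 0.155, from 0.03 to 0.58, with 6 positive values and 0 calls. The groups with a window overlap over nearly their whole range, and a match of letters is a description of the window and not a bound site.

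**Figure D5:**
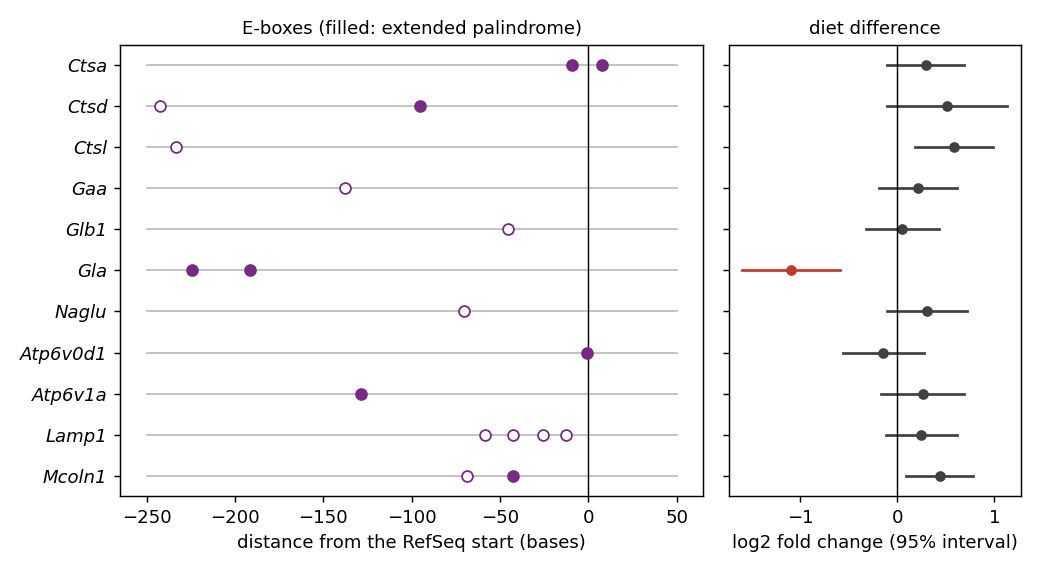
Left, places of CACGTG in the RefSeq promoter windows of the 11 members that hold it, as distance in bases from the start, filled where the letters are TCACGTGA. Right, the log2 fold change of the same gene with its 95% interval, where Gla, with 2 filled places, is the only one called (red, -1.09).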

How the data were processed

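The deposited file gave raw counts for 4 libraries and 53379 versioned Ensembl identifiers. No column belonged to another sample. The labels' protocols name RNeasy extraction and a TruSeq stranded mRNA kit. The submitters' processing notes list DESeq2 1.24.0, BWA 0.7.12, FastQC 0.11.5 and cutadapt 1.15, with the builds mm10 and GRCm38. How reads were counted, with which strand setting and annotation, and how multiply mapped reads were treated was not given in the sources used here.

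Symbols were matched by identifier for 53274 genes. Positions and main transcripts (APPRIS principal, then best support, then longest) came from GENCODE M21, and positions are given only where the identifier's version was the same. The test was edgeR's (4.0.16, R 4.3.3): filterByExpr (minimum count 10, minimum total 15), TMM, robust dispersions, glmQLFit and glmQLFTest on the diet, Benjamini-Hochberg over 18422 genes. The SE is the log2 fold change over the square root of F, and 95% intervals use the test's degrees of freedom. The code was tested on simulated counts. Near-identical copies were sought with blastn 2.17.0 (at least 90% identity over 200 bases). Reads carry no molecular identifiers, so counting intervals cover counting error only. Members and lists were chosen with earlier results of these data known. All 35 members are named, and of each other list every called gene or, with none, that of smallest p. Alternatives were other scalings, no filter, DESeq2 1.42.0, a replicate block and leaving out each library.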

Additional observations from a re-analysis of the deposited data

How the results depend on the processing

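Without the filter on low counts 1552 of all genes were called higher and 2231 lower, DESeq2 called 1062 higher, and the members called were 2 higher without the filter, 1 higher with scaling by total counts, and 1 higher and 2 lower with DESeq2. Among the other lysosomal genes the calls were 10 higher and 8 lower without the filter and 6 higher and 8 lower with DESeq2. Leaving out each library in turn gave 71 to 1934 higher and 300 to 2534 lower genes, 0 to 3 higher and 0 to 1 lower members, and 1 to 10 higher and 0 to 9 lower other lysosomal genes. The cause was not tested. Such a fit takes its spread from the diet with 2 mice left and assumes that the lone mouse varies alike. The median log2 fold change of the 35 members stayed between 0.12 and 0.21 in the 10 alternatives, and Gla was called lower in all but the fit without high-fat-diet mouse 1.

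Some members near 0 changed sign. Hexa was at -0.0021 with RLE size factors, and Man2b1 at 0.026 with scaling by total counts and 0.006 without the filter. With 1 library left out, log2 fold changes ran for Ctsc from -0.32 to 0.0315, Glb1 from -0.0711 to 0.20, Hexa from -0.20 to 0.27, Man2b1 from -0.16 to 0.0941, Smpd1 from -0.19 to 0.0568, Npc1 from -0.014 to 0.0751, Npc2 from -0.20 to 0.0053, Atp6v0d1 from -0.29 to 0.0281, Atp6v0d2 from -0.47 to 1.21, Atp6v1h from -0.0239 to 0.13, Atp6ap1 from -0.0197 to 0.13 and Scarb2 from -0.0858 to 0.36.

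The mouse numbers are not said to pair mice across diets, and the differences of mouse 1 minus mouse 2 correlated at -0.188 between the diets over 10312 genes. With the replicate block 567 genes were called higher and 1481 lower, and 5 other lysosomal genes were higher. Atp6v1g1 was not among them (adjusted p = 0.0551), so that 0 other proton pump genes were called higher. Igf2r was no longer called lower (adjusted p = 0.0902), and the members called stayed at 0 higher and 1 lower. With the crossed pairing, chosen after seeing the data, 909 genes were called higher, and 2 members were lower.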
